A study of Mus musculus with 12 samples.

Results

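The difference between the TGFb response of cells given a scrambled siRNA and that of cells given an siRNA against Bmal1 was examined gene by gene in EMS404, a mouse hepatic stellate cell line. The quantity reported is the interaction, that is the TGFb minus vehicle difference with Bmal1 siRNA less the same difference with scrambled siRNA, on the scale log2(FPKM + 1). The deposited unit is FPKM (a fragment count scaled to transcript length and to the size of the library). All 12 of the 12 libraries enter it, and 11208 of the 15720 genes in the table had a mean of at least 0.5 FPKM and were tested. A negative interaction means that TGFb moved a gene less far upward, or further downward, after Bmal1 siRNA.

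All groups were EMS404 cells, which are SV40 immortalized, of C57Bl6 origin and carry human TLR4. The 4 groups of 3 libraries were scrambled siRNA with vehicle, scrambled siRNA with TGFb, Bmal1 siRNA with vehicle and Bmal1 siRNA with TGFb. Transfection came 48 h before treatment, TGFb was given at 10 ng/mL, and RNA was taken after 24 h of it. The model is a single immortalized line with 1 control siRNA and 1 sampling time, so a difference in level cannot be told apart from a shift in the phase of a rhythm. In bulk RNA, fewer cells of a type and less RNA per cell cannot be told apart either. The triplicates are called biological by the submitters, but nothing says that they were separate cultures, so p-values measure the spread between these libraries, which may be technical.

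TGFb binds a pair of serine/threonine kinase receptors that phosphorylate Smad2 and Smad3, which enter the nucleus with Smad4 and, with partners such as AP-1, turn on matrix genes along with their own inhibitors. In the liver this signal drives the quiescent, vitamin A storing stellate cell toward a contractile, collagen-secreting myofibroblast. Bmal1, encoded by Arntl, pairs with Clock on E-box sequences and forms the positive limb of the circadian clock, and its products Per, Cry, Rev-erb and Dec (Bhlhe40, Bhlhe41) feed back on it.

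The transcript that the siRNA targets was lower with it under both treatments. Arntl stood at 5.43, 5.19 and 4.91 FPKM in the 3 scrambled vehicle libraries and at 10.5, 10.8 and 10.9 FPKM after TGFb, against 3.9, 3.87 and 3.59 FPKM with Bmal1 siRNA and vehicle and 5.05, 4.01 and 4.0 FPKM with Bmal1 siRNA and TGFb. Its interaction was -0.77 (SE 0.106, adjusted p = 0.000526), a value in which knockdown of the transcript and a smaller induction by TGFb cannot be told apart. Not all markers of the labelled cell type were present. Of the stellate list, Hand2 (77.08 to 134.97 FPKM), Lhx2 (13.09 to 15.61 FPKM) and Vim (961.72 to 1113.61 FPKM) were expressed in every library, Col1a1 lay between 2716 and 4222 FPKM and Pdgfrb between 10.35 and 30.86 FPKM, but Gfap was at most 0.04 FPKM, Des at most 1.23 FPKM, and Lrat and Reln were not in the table. Mesothelial Upk3b (31.06 to 193.25 FPKM) and Wt1 (19.18 to 32.9 FPKM) were present in every library. Of the joint list of mesothelial and portal fibroblast markers, Thy1, Entpd2 and Eln were at most 0.09, 0.04 and 0.5 FPKM. Fbln2 (329.24 to 627.78 FPKM), Cd34 (118.9 to 231.31 FPKM) and Gas6 (10.98 to 27.9 FPKM) were expressed in every library, and Mfap4 lay between 0.36 and 14.94 FPKM. Summed over 14 mesothelial and portal fibroblast markers, levels were 899.7 to 985.5 FPKM with scrambled siRNA and vehicle, 867.3 to 973.6 FPKM with scrambled siRNA and TGFb, 954.3 to 1012.8 FPKM with Bmal1 siRNA and vehicle and 796.0 to 898.0 FPKM with Bmal1 siRNA and TGFb. Such sums weigh abundant members like Fbln2 most. The median TGFb minus vehicle difference over the 11 tested members was -0.57 with scrambled siRNA and -0.46 with Bmal1 siRNA. What part differences in these markers have in the results was not tested. Of 10 leukocyte and Kupffer cell markers Ptprc, Adgre1 and Clec4f were not in the table, and Laptm5, Itgam and Lyz2 were at most 0.02, 0.02 and 0.15 FPKM. Csf1r and Fcer1g reached 0.59 and 1.52 FPKM. Cd68 (2.63 to 4.71 FPKM) and Cd14 (4.21 to 8.85 FPKM) were present in every library, and Cd14 had a called interaction of 0.60.

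Most of the genes whose TGFb response differed between the siRNAs responded less after Bmal1 siRNA. In limma 1612 genes, or 14.4% of those tested, had an interaction with a Benjamini-Hochberg adjusted p under 0.05 and are referred to as called. Of these 993 were higher (8.86%) and 619 lower (5.52%), and 28 and 118 of them passed a 2-fold change in the respective direction. Under median-of-ratios scaling the balance turned to 575 higher of 1367 calls, or 42.1% against 61.6% here, and under quantile normalization it was 49.4%. The median interaction over all genes moved from 0.06 to 0.00 with the former. Left out in turn, the libraries left 991 to 1872 calls, the lowest count being without the second Bmal1 siRNA vehicle library. The siRNA effect behind these interactions lay mostly under TGFb. Among the 1612 genes the median absolute siRNA effect was 0.12 under vehicle and 0.31 under TGFb on the log2 scale. By limma the siRNA effect was called for 47 of them under vehicle, where 0.66% of all genes were called, and for 1254 under TGFb, where 23.2% were. In 1422 of the 1612 (88.2%, against 39.2% of all genes) the 3 TGFb libraries of one siRNA lay wholly apart from the 3 of the other. The 1612 genes were chosen on values of these same libraries. Shares above those of all genes therefore follow in part from that choice and are no separate evidence.

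To read a direction into each interaction, responding genes were chosen by the average TGFb effect over both siRNAs, which in this balanced design carries no information on the interaction. It was called for 5218 genes (46.6%). Taken separately, TGFb changed 5105 genes (45.5%) with scrambled siRNA and 2128 (19%) with Bmal1 siRNA. A response counts as blunted where the interaction was called against the direction of the average effect, as enlarged where it was called in that direction, and as kept where it was not called, both arms were called in the same direction and the 95% interval of the interaction lay within 1.5-fold either way. On these terms 1239 responses were blunted (11.1% of genes tested, 23.7% of those called on the average), 491 of them rises and 748 falls. There were 952 kept responses (8.49% of genes tested), 403 rises and 549 falls, and 18 enlarged ones (0.161%). In 4 of the genes called on the average, TGFb was called in opposite directions with the 2 siRNAs. Another 351 genes had a called interaction without an average response. In all 351 the 2 arms differed in sign, and in 72 the Bmal1 siRNA arm was called. Ciart, 1 of these, was called in both arms, so the 4 are not all reversals. For 3005 responding genes the data did not decide between these classes. Of the blunted rises 240 were still called after Bmal1 siRNA, and of the blunted falls 244. The split of blunted responses into rises and falls depended on scaling. Under median-of-ratios scaling 630 of 1085 were rises, and under quantile normalization 576 of 1102. The sizes of the kept and enlarged classes rest on single libraries. Kept responses numbered 1686 without the second Bmal1 siRNA TGFb library, 543 and 538 without the first and the third, and 608 and 621 without the second and the third Bmal1 siRNA vehicle library. Enlarged responses numbered 92 without the second Bmal1 siRNA TGFb library and 7 without the second Bmal1 siRNA vehicle library.

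**Figure D1:**
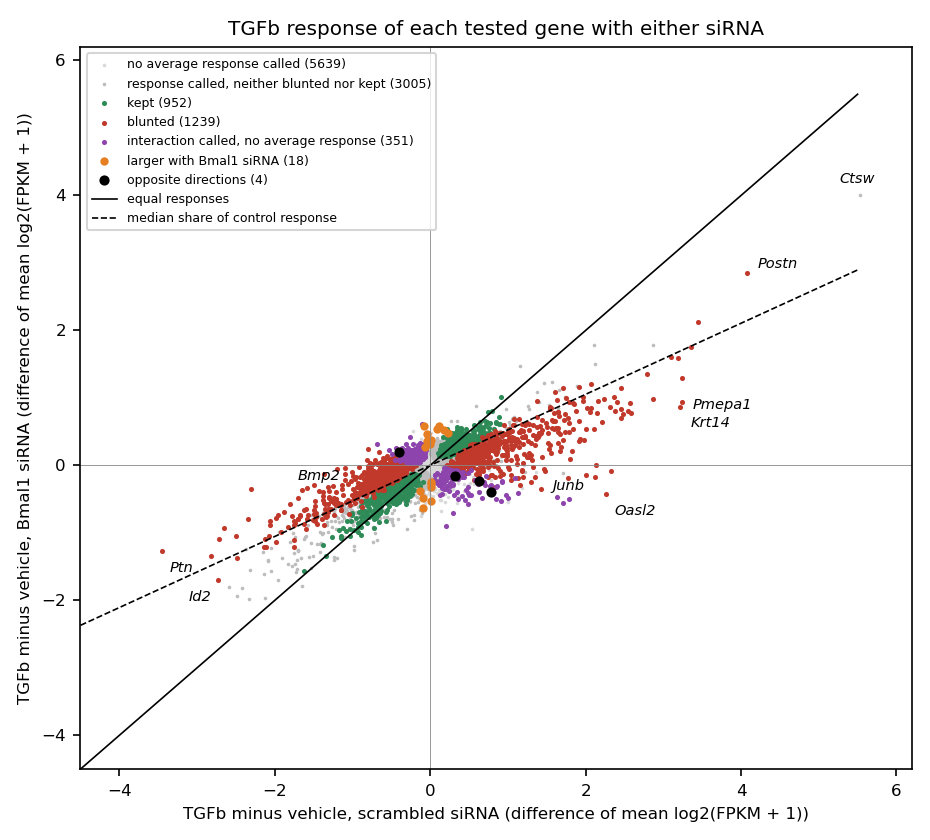
Each point is 1 of the 11208 tested genes, with the TGFb minus vehicle difference of mean log2(FPKM + 1) with scrambled siRNA on the x axis and with Bmal1 siRNA on the y axis; colours give the classes, the solid line marks equal responses and the dashed line the median share of 52.7%. The 1239 blunted genes lie between the solid line and the x axis or just beyond that axis, whereas the 952 kept genes lie within 1.5-fold of the solid line.

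Large rises were blunted more often than large falls. Among rises with an average effect of 0.5 to 1 on the log2 scale 66.5% were blunted, and among those of 1 to 1.5 the share was 83.1%. The corresponding shares of falls were 34% and 46.3%. Only 9 falls and none of the rises with an average effect of 1 to 1.5 met the rule for a kept response. The largest response of all, that of Ctsw (cathepsin W, a lymphocyte protease; chosen after its values were seen), was undecided. Its mean went from 0.337 to 60.5 FPKM with scrambled siRNA and from 0.26 to 22.2 FPKM with Bmal1 siRNA, with an interaction of -1.53 and an adjusted p of 0.0574.

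The size of the remaining response differed between the 3 Bmal1 siRNA TGFb libraries by more than anything seen among the scrambled ones. Over the 880 genes called on the average effect with an absolute average of at least 0.5, the response with Bmal1 siRNA was 52.7% of the control response in the median gene (quartiles 38.6% and 71.1%). Library by library the median was 70.7%, 29.7% and 59.5%. The scrambled TGFb libraries, whose mean defines 100%, were at 104%, 96.8% and 99.3%. The second Bmal1 siRNA TGFb library thus stood apart. It had the smallest response of the 3 for 804 of the 880 genes (91.4%). Arntl was highest in the first library (5.05 FPKM), which also had the largest response, and nearly equal in the second and the third (4.01 and 4.0 FPKM). Without both second TGFb libraries the median share was 66.4%. Rises kept a smaller share than falls, 42.6% over 349 rises against 60.5% over 531 falls, and this order held within each library, at 55.4% against 81.1%, 24.8% against 33.8% and 48.0% against 67.5%.

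**Figure D2:**
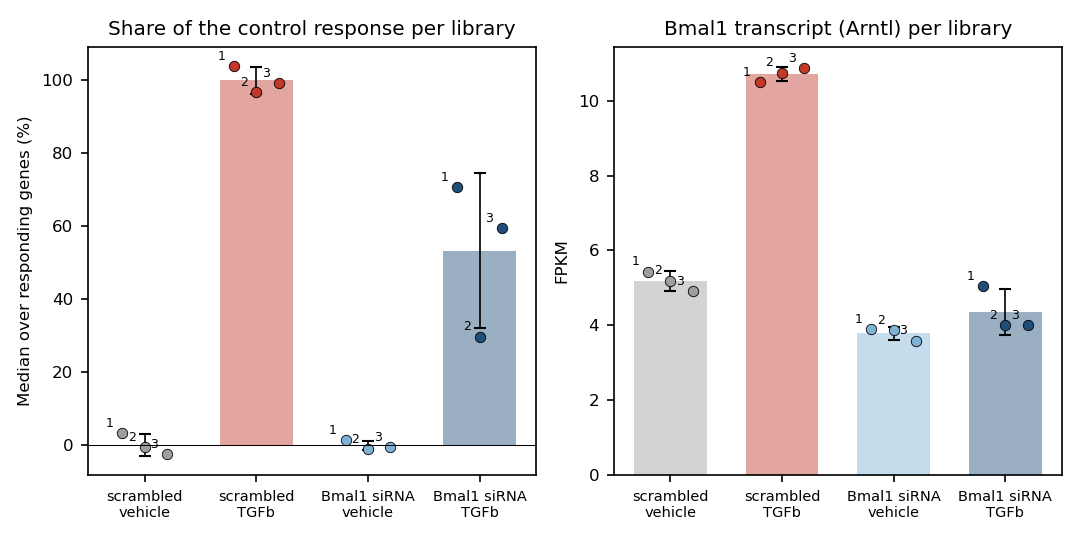
Left, for each library the median over 880 responding genes of its difference from the vehicle mean of the same siRNA, in percent of the control response; right, FPKM of Arntl; bars are means of 3 libraries, error bars SD, points libraries with their replicate number. The Bmal1 siRNA TGFb libraries lie at 70.7%, 29.7% and 59.5%, all under the lowest scrambled TGFb library at 96.8%, and Arntl is at 5.05, 4.01 and 4.0 FPKM in the same libraries.

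Genes that restrain TGFb signalling were among those that rose far less after Bmal1 siRNA. Of 14 tested feedback regulators 8 had a called lower interaction (5.52% of all genes did) and none a higher one. Their median TGFb effect was 0.58 with scrambled siRNA and 0.13 with Bmal1 siRNA, with a median interaction of -0.42 against 0.06 over all genes. The same 8 of 14 count was found without either or both second TGFb libraries. Pmepa1, a membrane protein that sequesters receptor-activated Smads (chromosome 2, 173224458 to 173276533, minus strand, mm10), was at 16.1, 15 and 16.2 FPKM with scrambled siRNA and vehicle and at 166, 149 and 156 FPKM with TGFb. With Bmal1 siRNA it stood at 15.6, 15.7 and 15.4 FPKM under vehicle and 42.8, 19.2 and 34.9 FPKM under TGFb. Vehicle levels overlapped between the siRNAs, whereas every TGFb library with Bmal1 siRNA was below every one with scrambled siRNA. The interaction was -2.31 (SE 0.27, adjusted p = 0.000181).

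Skil (SnoN), a Smad co-repressor, went from 2.35, 2.94 and 2.83 to 9.93, 10 and 9.63 FPKM with scrambled siRNA, but only from 3.56, 3.59 and 3.62 to 4.71, 3.43 and 4.61 FPKM with Bmal1 siRNA. The second of these TGFb libraries was below all 3 of its vehicle libraries. The interaction was -1.37 (SE 0.13, adjusted p = 5.62e-05). Ldlrad4, a Pmepa1 relative, kept 33.8% of its response (interaction -1.57, adjusted p = 0.000325). Inhibitory Smad7 had means of 4.76 and 9.25 FPKM without and with TGFb after scrambled siRNA, against 4.94 and 4.24 FPKM after Bmal1 siRNA, an interaction of -1.01. Spsb1, which directs the type II receptor to degradation, was called in opposite directions. TGFb took it from 20.9, 19.7 and 21.7 to 35.6, 36.6 and 37.2 FPKM with scrambled siRNA and from 21.9, 21.8 and 22.1 to 15.5, 18.2 and 16 FPKM with Bmal1 siRNA. No TGFb library overlapped the vehicle libraries of its own siRNA. Its interaction was -1.17 (SE 0.0812, adjusted p = 7.74e-06), and 103 of its exon bases are shared with the antisense gene Gm13070.

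Upstream of these inhibitors the picture was mixed. Of 13 tested ligand and latency genes 7 were lower on the interaction and none higher, and their median response went from 0.62 to 0.07. Lrrc32 (GARP), which tethers latent TGFb to the cell surface, had an interaction of -1.31 (adjusted p = 0.000148), Ltbp2 of -1.36 (0.00139) and Inhba, the activin A subunit, of -0.84 (0.0079). Tgfb1 rose with scrambled siRNA by 0.51 and with Bmal1 siRNA by 0.16, an interaction of -0.34. Tgfb2 and Tgfb3 fell alike with both siRNAs, by 0.97 and 0.96 for Tgfb2 and by 0.93 and 0.98 for Tgfb3, and met the rule for kept responses. Their mean levels under TGFb were 11.5 and 14.6 FPKM for Tgfb2, and 21.1 and 20.2 FPKM for Tgfb3, with scrambled and Bmal1 siRNA. Among 12 receptors and Smads 2 had a called interaction, near the 14.4% called over all genes. They were the co-receptor Tgfbr3 (0.93), which fell less, and the type I receptor Acvr1 (-0.45), which rose less. The median interaction of these 12 was -0.02.

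Bone morphogenetic protein (BMP) genes were blunted in both directions, with 3 higher and 4 lower of 17. Bmp2 fell from 17.7, 17.9 and 17.7 to 5.25, 4.7 and 5.01 FPKM with scrambled siRNA. With Bmal1 siRNA it fell from 18, 17.1 and 16.5 to 12.1, 14.4 and 12.8 FPKM, which left every TGFb library well above the control ones. The interaction was 1.28 (SE 0.0902, adjusted p = 7.74e-06). Bmp4 (1.21) and Gdf10 (1.45) were blunted falls too, and Fstl3, an activin-binding antagonist, a blunted rise (-1.33). The antagonist Grem1 behaved otherwise. It rose from 28.3, 26.6 and 27.7 to 59.7, 46 and 53.9 FPKM with scrambled siRNA and from 28.4, 22.7 and 22.5 to 65.2, 38 and 50.9 FPKM with Bmal1 siRNA. Both rises were called, the TGFb libraries of the siRNAs overlapped, and the interaction of 0.09 had an interval of -0.37 to 0.56. Id2, a helix-loop-helix inhibitor that BMP signals maintain, fell from 15.9, 15.8 and 15.1 to 2.02, 1.0 and 1.54 FPKM and, after Bmal1 siRNA, from 15.7, 16.9 and 18 to 3.69, 6.41 and 3.8 FPKM (interaction 1.04, adjusted p = 0.0106).

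In 4 of the lists of matrix genes every called interaction was lower. Over all genes 5.52% were lower and 8.86% higher. The lists of collagen processing and of proteases and inhibitors, given below, also had higher calls. Of 9 tested genes of proteoglycans and matrix Gla protein 2 were lower and 1 higher. In the matricellular list 8 of 13 tested genes were lower on the interaction and none higher, in the fibrillar and type VI collagens 7 of 12, in the basement membrane genes 7 of 15 and in the elastic fibre genes 4 of 10. Median interactions were -0.54, -0.38, -0.13 and -0.15. The median response went from 0.86 to 0.38 in the matricellular list and from 0.65 to 0.29 in the collagens, and in the basement membrane and elastic fibre lists from 0.17 to -0.024 and from 0.16 to 0.0045. The matricellular count was 10 of 13 without the second Bmal1 siRNA TGFb library, and the collagen count was 6 without the second scrambled TGFb library. Postn, periostin, had the largest rise among the blunted genes, from 1.47, 1.15 and 1.04 to 34.5, 36.1 and 38.5 FPKM with scrambled siRNA. With Bmal1 siRNA it rose from 1.58, 1.33 and 1.39 to 21.3, 10.4 and 20.6 FPKM. The vehicle levels differed little, and the 3 TGFb levels were lower without overlap, the second of them most. The interaction was -1.22 (SE 0.269, adjusted p = 0.0102), and 70.1% of the control response remained.

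Fbn1, the microfibril backbone fibrillin, kept less. It stood at 1.18, 1.66 and 1.65 and 11.8, 13.5 and 12.8 FPKM without and with TGFb after scrambled siRNA, and at 2.12, 2.11 and 2.38 and 4.87, 3.0 and 4.98 FPKM after Bmal1 siRNA. Its interaction was -1.76 (SE 0.188, adjusted p = 0.000103), with 28.4% left, and 2442 of its exon bases are shared with the gene model Gm9913. Mfap4, another microfibril protein, kept 39.7% (-1.96), and 89 of its exon bases are shared with Mapk7. Ccn2 (connective tissue growth factor), a direct Smad and YAP target, rose to 134, 111 and 105 FPKM with scrambled siRNA but to 54, 20.8 and 45.8 FPKM with Bmal1 siRNA. In the second of these libraries Ccn2 was within the range of the scrambled vehicle libraries (23.3, 22 and 19.9 FPKM). The call (interaction -1.36, adjusted p = 0.0200) ended when low genes were left in the test. Collagen changes were smaller in log terms and large in abundance. Col5a1 rose from a mean of 75.2 to 229.6 FPKM and, after Bmal1 siRNA, from 78.0 to 136 FPKM (interaction -0.82, adjusted p = 0.00125). Col1a1 went from 2784 to 4130.0 FPKM and from 2905 to 3457 FPKM (interaction -0.32, adjusted p = 0.0286), a call that was lost in 6 of 12 fits without 1 library, with adjusted p-values up to 0.0726.

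Enzymes that process and degrade matrix had called interactions in both directions. Lox, lysyl oxidase, which crosslinks collagen and elastin, was at 157, 189 and 184 and 411, 409.8 and 394 FPKM without and with TGFb after scrambled siRNA. After Bmal1 siRNA it was at 233, 251 and 252 and 281, 230.3 and 248 FPKM. Vehicle levels were higher with Bmal1 siRNA in every library and TGFb added nothing that was called. The interaction was -1.16 (SE 0.11, adjusted p = 5.62e-05). Of 23 tested genes of collagen processing 6 were lower and 2 higher, and 10 were lower without the second Bmal1 siRNA TGFb library. Of 21 proteases and inhibitors 8 were lower and 6 higher. Gelatinase Mmp2 kept 48.3% of its rise (-1.45, adjusted p = 7.44e-05), and Mmp9 and Timp3 were lower on the interaction by -1.15 and -0.88.

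**Figure D3:**
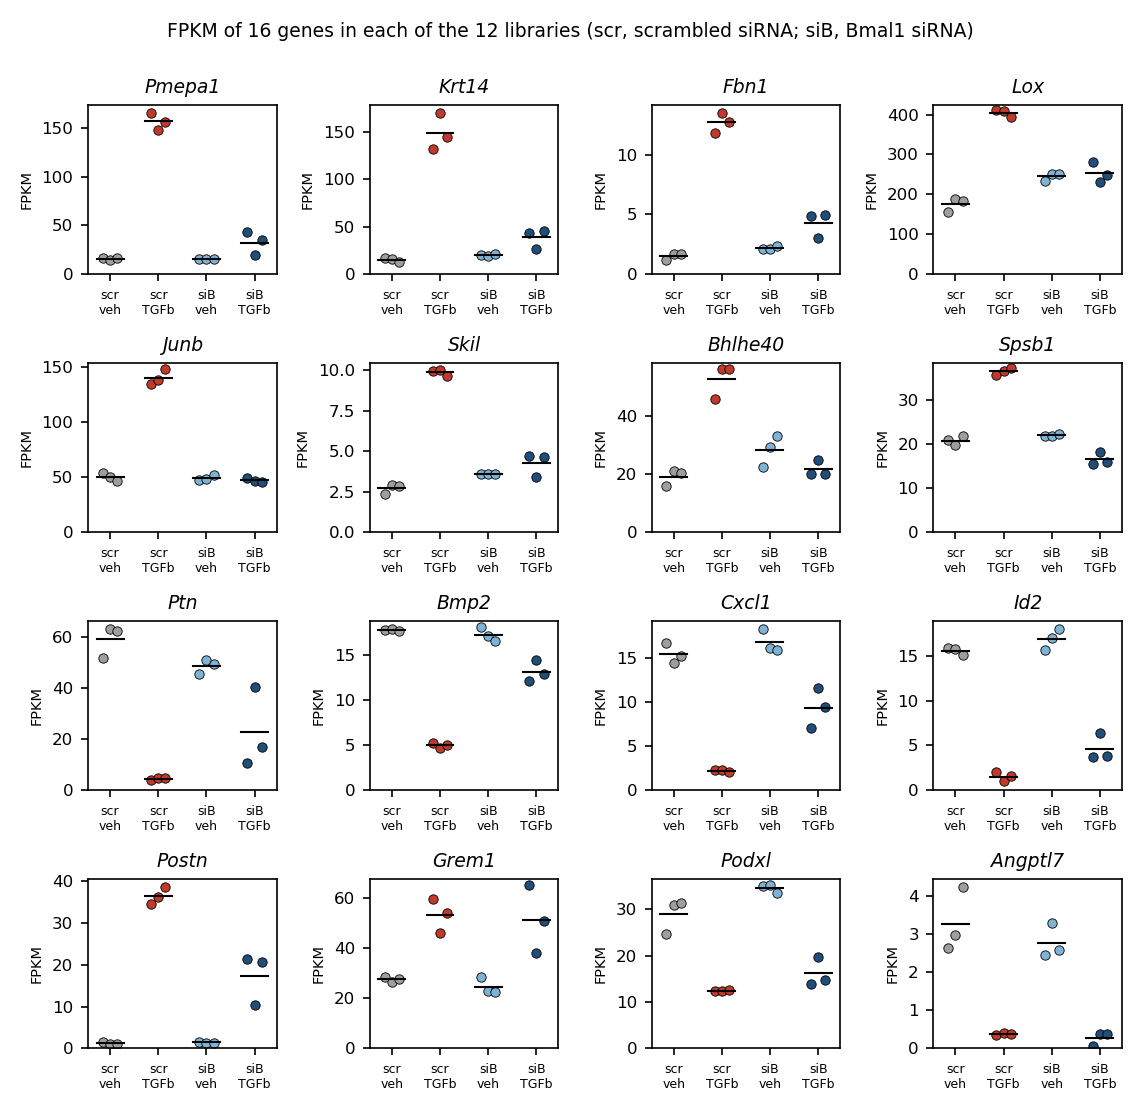
FPKM of 16 named genes in each library (linear axes from 0, points are libraries, bars group means; scr, scrambled siRNA; siB, Bmal1 siRNA; veh, vehicle). In the top 2 rows the Bmal1 siRNA TGFb libraries stay below the scrambled ones, in the third row they stay above, and in the last row Postn is partly retained while Grem1, Podxl and Angptl7 overlap or nearly overlap between the siRNAs.

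The contractile genes that define a myofibroblast were blunted in part. Of 20 tested, 5 were lower on the interaction, 6 were kept and none was higher, and the median response went from 0.43 to 0.17. Without the second scrambled TGFb library 3 were lower, and under median-of-ratios scaling 8. Acta2, smooth muscle actin, went from 56.5, 55.3 and 51.5 to 239, 239.7 and 241 FPKM with scrambled siRNA and from 51.7, 56.6 and 57.9 to 185, 114 and 188 FPKM with Bmal1 siRNA. All 3 of the latter were below the control TGFb levels, but the interaction of -0.62 missed the threshold (adjusted p = 0.0526), so Acta2 was undecided. Myh9, nonmuscle myosin, and Cald1, caldesmon, were called at -0.60 and -0.47. Actg2, a second smooth muscle actin, was kept, at 1.3, 1.08 and 1.37 FPKM with scrambled siRNA and TGFb and 1.27, 0.64 and 0.92 FPKM with Bmal1 siRNA and TGFb. Integrins, which anchor the cell to matrix and release latent TGFb, were lower in 7 of 12 and higher in 1. Itgb3 led with -1.24 (SE 0.127, adjusted p = 7.52e-05), its TGFb levels being 8.88, 9.14 and 9.38 FPKM with scrambled siRNA and 4.81, 3.53 and 3.92 FPKM with Bmal1 siRNA.

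Transcription factors downstream of TGFb divided sharply. Junb, an AP-1 subunit, had the smallest p-value of all genes. It was at 53.5, 50.1 and 47 FPKM under vehicle and 134, 139 and 149 FPKM under TGFb with scrambled siRNA. With Bmal1 siRNA these levels were 47.9, 48 and 51.8 and 49.4, 46.8 and 45.8 FPKM. TGFb raised it in every control library, and after Bmal1 siRNA all 3 TGFb libraries lay within or below the vehicle range. The interaction was -1.52 (SE 0.0811, adjusted p = 9.45e-07), and 173 of its exon bases are shared with Prdx2. In all 5 of 22 AP-1 and immediate early genes were lower (8 under median-of-ratios scaling), among them Egr2 (-1.29) and Klf10 (-1.26). The epithelial-mesenchymal factors Runx1 (-1.61), Foxc2 (-1.57) and Snai1 (-1.24) were blunted rises, in a list with 6 lower and 2 higher of 16. Snai1 stood at 128, 120.1 and 125 FPKM under TGFb with scrambled siRNA and 52.8, 37.6 and 49.9 FPKM with Bmal1 siRNA. Snai2, Zeb2 and Runx2 of the same list were kept. Keratin 14 (Krt14), an intermediate filament of basal epithelium, rose to 132, 170.0 and 144 FPKM and, after Bmal1 siRNA, to 43.2, 26.8 and 45.9 FPKM, an interaction of -2.34 (SE 0.233, adjusted p = 7.07e-05).

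The clock repressors Bhlhe40, Bhlhe41 and Nfil3 were induced less by TGFb after Bmal1 siRNA, whereas Per1 and Per2 were kept. Of 22 tested clock and output genes, Arntl included, 5 were lower on the interaction and 1 higher, with a median interaction of -0.039. Bhlhe40 (DEC1), a repressor of E-box genes, was at 15.7, 21 and 20.3 FPKM with scrambled siRNA and vehicle and at 45.5, 55.9 and 55.9 FPKM with TGFb. With Bmal1 siRNA it was at 22.2, 29.4 and 32.9 FPKM under vehicle and 20.1, 24.9 and 19.9 FPKM under TGFb. The control TGFb libraries lay above all others, and the TGFb libraries of the Bmal1 siRNA overlapped both vehicle groups. The interaction was -1.78 (SE 0.201, adjusted p = 0.000148). Its relative Bhlhe41 (DEC2) was low throughout and had TGFb levels of 0.91, 1.23 and 1.46 FPKM and 0.37, 0.57 and 0.38 FPKM with scrambled and Bmal1 siRNA (interaction -0.93, adjusted p = 0.00134), with 1280 exon bases shared with the gene model Gm43909. Nfil3, a D-box repressor, kept 34.4% of its rise (-0.62, adjusted p = 0.000638). Ciart, a Clock-Bmal1 repressor, was at 10.8, 14.6 and 12.2 FPKM and 9.15, 9.49 and 8.68 FPKM under TGFb, having been at 8.74, 9.75 and 10.3 FPKM and 9.81, 12.4 and 15.1 FPKM under vehicle. The 2 arms differed in sign, and the interaction was -0.73 (SE 0.179, adjusted p = 0.0164). Dbp, the D-box activator, fell with scrambled siRNA from a mean of 5.5 to 2.32 FPKM and was at 5.5 and 4.78 FPKM after Bmal1 siRNA (interaction 0.77, adjusted p = 0.0295). That call was lost in 5 of 12 fits without 1 library, with adjusted p-values up to 0.0692, and 539 exon bases of Dbp are shared with Sphk2.

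The start-site sequences of these clock genes show where the canonical Bmal1 motif lies relative to them. Promoter sequence from RefSeq (GRCm38.p6, the 250 bases before the start, 5′ to 3′ on the gene's strand) was searched on both strands, overlaps counted, for CACGTG, the E-box, and 7 other motifs. Ciart and Bhlhe41 are shown as clock genes with a called interaction and an E-box, and Isg15 as an interferon gene. Capitals mark the matches. Ciart lies at chr3:95882229-95882478 on the minus strand and has E-boxes beginning 116, 58 and 44 bases before the start and, overlapping the last of them, a CAGACA match at 40. Bhlhe41 lies at chr6:145865421-145865670, minus strand, with an E-box at 153. Isg15 lies at chr4:156200819-156201068, minus strand, with 3 overlapping matches to the interferon element (GAAA and GAAA with any 2 bases between) at 78, 72 and 66.
Ciart: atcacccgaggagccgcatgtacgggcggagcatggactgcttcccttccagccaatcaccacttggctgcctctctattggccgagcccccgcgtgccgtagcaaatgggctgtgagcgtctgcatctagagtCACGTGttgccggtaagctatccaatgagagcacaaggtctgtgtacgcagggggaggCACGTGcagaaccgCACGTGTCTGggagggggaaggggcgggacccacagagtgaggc
Bhlhe41: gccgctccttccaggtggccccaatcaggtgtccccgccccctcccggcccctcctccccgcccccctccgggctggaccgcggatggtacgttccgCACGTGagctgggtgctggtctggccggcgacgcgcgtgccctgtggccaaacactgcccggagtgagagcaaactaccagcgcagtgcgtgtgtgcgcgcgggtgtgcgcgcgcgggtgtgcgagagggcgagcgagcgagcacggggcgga
Isg15: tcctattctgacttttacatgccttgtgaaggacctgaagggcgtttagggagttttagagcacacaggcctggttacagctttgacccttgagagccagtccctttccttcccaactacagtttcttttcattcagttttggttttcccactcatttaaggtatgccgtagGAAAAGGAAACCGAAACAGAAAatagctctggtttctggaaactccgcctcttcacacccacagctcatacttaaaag

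The share of blunted rises with an E-box was close to that of all tested genes. It was held by 9.58% of the 355 blunted rises with a promoter in the table, 13.2% of 599 blunted falls, 10.1% of 317 kept rises, 10.7% of 421 kept falls, 10.5% of the 8939 tested genes with a promoter and 7.24% of all 27025 promoters. CAGACA, a flanked Smad core element, was held by 22% of blunted rises, 12% of kept rises and 15.2% of tested genes. It was in 21.0% of all promoters, 15.9% of blunted falls and 15.2% of kept falls. TGANTCA, the AP-1 motif, was held by 8.17% of blunted rises, 4.42% of kept rises and 4.43% of tested genes (7.93% of all promoters). Among falls the order was the other way, with 4.67% of blunted and 7.13% of kept falls. TGATGCAA, the ATF4 element, was held by 3.38% of blunted rises, 2.21% of kept rises and 0.571% of tested genes. Blunted and kept falls were at 0.668% and 0.475%. The other motifs searched were GTCTAGAC (Smad box), TTATGTAA (D-box) and AGGTCA (ROR element), which 0.282%, 0.282% and 10.4% of blunted rises and 0.235%, 0.369% and 11.5% of tested genes held. These shares are descriptions of short windows and are not tests.

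Interferon-stimulated genes had the widest gap between the siRNAs and the widest spread between libraries. Of 46 tested, 22 were lower on the interaction and none was higher, and the median response was 0.83 with scrambled siRNA and -0.19 with Bmal1 siRNA. The control response was uneven. Its median over the list was 0.29, 1.65 and 0.69 in the 3 scrambled TGFb libraries, while the Bmal1 siRNA TGFb libraries were at -0.27, -0.16 and -0.20. Without the second scrambled TGFb library 25 of 42 tested genes were lower, with a median interaction of -0.80 against -1.15 with all libraries. Oasl2, an antiviral 2′-5′-oligoadenylate synthetase-like protein, was at 6.9, 6.13 and 8.06 FPKM and 16.3, 91.4 and 34.4 FPKM without and with TGFb after scrambled siRNA, and at 9.28, 18.3 and 10 FPKM and 7.84, 8.92 and 9.23 FPKM after Bmal1 siRNA. The interaction was -2.69 (SE 0.604, adjusted p = 0.0111), the largest in absolute size among the genes named. The call held without each library in turn, although the first scrambled TGFb library was below the second Bmal1 siRNA vehicle library. Isg15, a ubiquitin-like modifier, stood at 8.28, 6.75 and 8.26 FPKM and 15.8, 99.1 and 32.2 FPKM, and at 8.02, 12.8 and 8.62 FPKM and 9.3, 9.63 and 10.1 FPKM. In the scrambled TGFb group the second library was far above the other two, and the lowest was still above every Bmal1 siRNA library. Its call (interaction -2.12, adjusted p = 0.0363) was lost in 8 of 12 fits without 1 library (adjusted p up to 0.094). That of Irf7 (-2.09, adjusted p = 0.0219), the factor that amplifies interferon output, was lost in 2 of 12 (up to 0.0626), and 45 exon bases of Irf7 are shared with Phrf1. The interferon element was found in 10 of the 17 called interferon promoters in the table, or 58.8%, and the E-box in none of the 17. The element was in 2.96% of tested genes and 3.49% of all promoters. Its share among list members without a call was not counted, so these shares do not bear on the call. The related MHC class I list moved in the same direction, with 2 lower of 15 (5.52% of all genes were) and a median response of 0.29 and -0.26. Its median was -0.131, 0.671 and 0.243 in the scrambled TGFb libraries, and without the second of them the control response was 0.064. Lower calls numbered 4 without the second Bmal1 siRNA TGFb library.

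**Figure D4:**
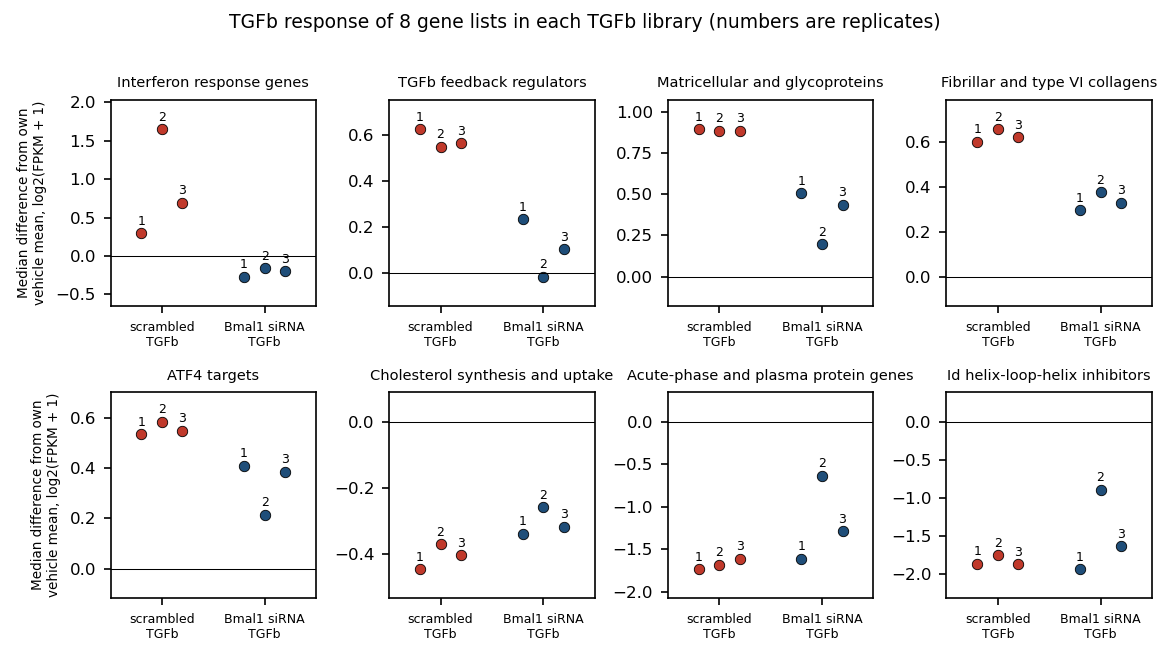
For 8 gene lists, the median over tested members of each TGFb library's difference from the vehicle mean of its own siRNA (log2(FPKM + 1)), with the replicate number above each point; axes differ between panels. Interferon genes spread from 0.29 to 1.65 in the scrambled TGFb libraries and lie below 0 in all 3 Bmal1 siRNA libraries, and in the acute-phase and Id lists the first Bmal1 siRNA library is at the control level while the second is not.

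Many genes that TGFb lowers fell less after Bmal1 siRNA. Ptn, pleiotrophin, a heparin-binding growth factor, had the largest blunted fall. It went from 51.6, 63.1 and 62.2 to 3.95, 4.6 and 4.85 FPKM with scrambled siRNA and from 45.7, 50.8 and 49.5 to 10.7, 40.3 and 16.9 FPKM with Bmal1 siRNA. All 3 of these were above the control TGFb libraries, by very different amounts. The interaction was 2.18 (SE 0.433, adjusted p = 0.00592). Mgp, matrix Gla protein, an inhibitor of calcification, fell to 2.67, 4.52 and 3.54 FPKM with scrambled siRNA and was at 7.38, 23.5 and 12.1 FPKM with Bmal1 siRNA and TGFb, where the second library lay above the Bmal1 siRNA vehicle range (14, 17.7 and 19 FPKM). Its interaction was 1.95 (SE 0.419, adjusted p = 0.00918). The neutrophil chemokine Cxcl1 fell from 16.6, 14.4 and 15.2 to 2.25, 2.31 and 2.1 FPKM and, after Bmal1 siRNA, from 18.3, 16.1 and 15.8 to 7.06, 11.6 and 9.39 FPKM. Here the 3 libraries were closer together, and the interaction was 1.55 (SE 0.174, adjusted p = 0.000148). In the growth factor list 6 of 26 genes were higher and 11 lower. Fgf7 (1.22) and the receptor Pdgfra (0.92) fell less with Bmal1 siRNA than with scrambled siRNA, and Pdgfb (-1.80) and Hbegf (-0.95) rose less.

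Plasma protein genes fell under TGFb with either siRNA. Of 13 tested 2 had a called interaction, Hp (haptoglobin, 1.62) and Cp (ceruloplasmin, 1.15), both higher. That is near the 14.4% called over all genes. The list's median response was -1.74 with scrambled siRNA and -1.10 with Bmal1 siRNA, but it was -1.61, -0.64 and -1.29 in the single Bmal1 siRNA TGFb libraries, so that the first was within the control range of -1.73 to -1.61. Hp itself was at 0.14, 0.11 and 0.17 FPKM under TGFb with scrambled siRNA and 0.61, 2.72 and 1.01 FPKM with Bmal1 siRNA, from 7.44, 6.26 and 5.9 FPKM and 4.6, 3.29 and 3.9 FPKM under vehicle. Smaller shifts in the same direction were seen in oxidative phosphorylation, with 12 of 63 subunits higher and none lower (8.86% of all genes were higher), where the median response was -0.21 with scrambled siRNA and 0.01 with Bmal1 siRNA. Under median-of-ratios scaling that count fell to 3. NRF2 and glutathione genes were higher in 6 of 24, led by Aldh3a1 (1.20) and Gstm1 (1.17). That count was 3 under median-of-ratios scaling and 3 without both second TGFb libraries.

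**Figure D5:**
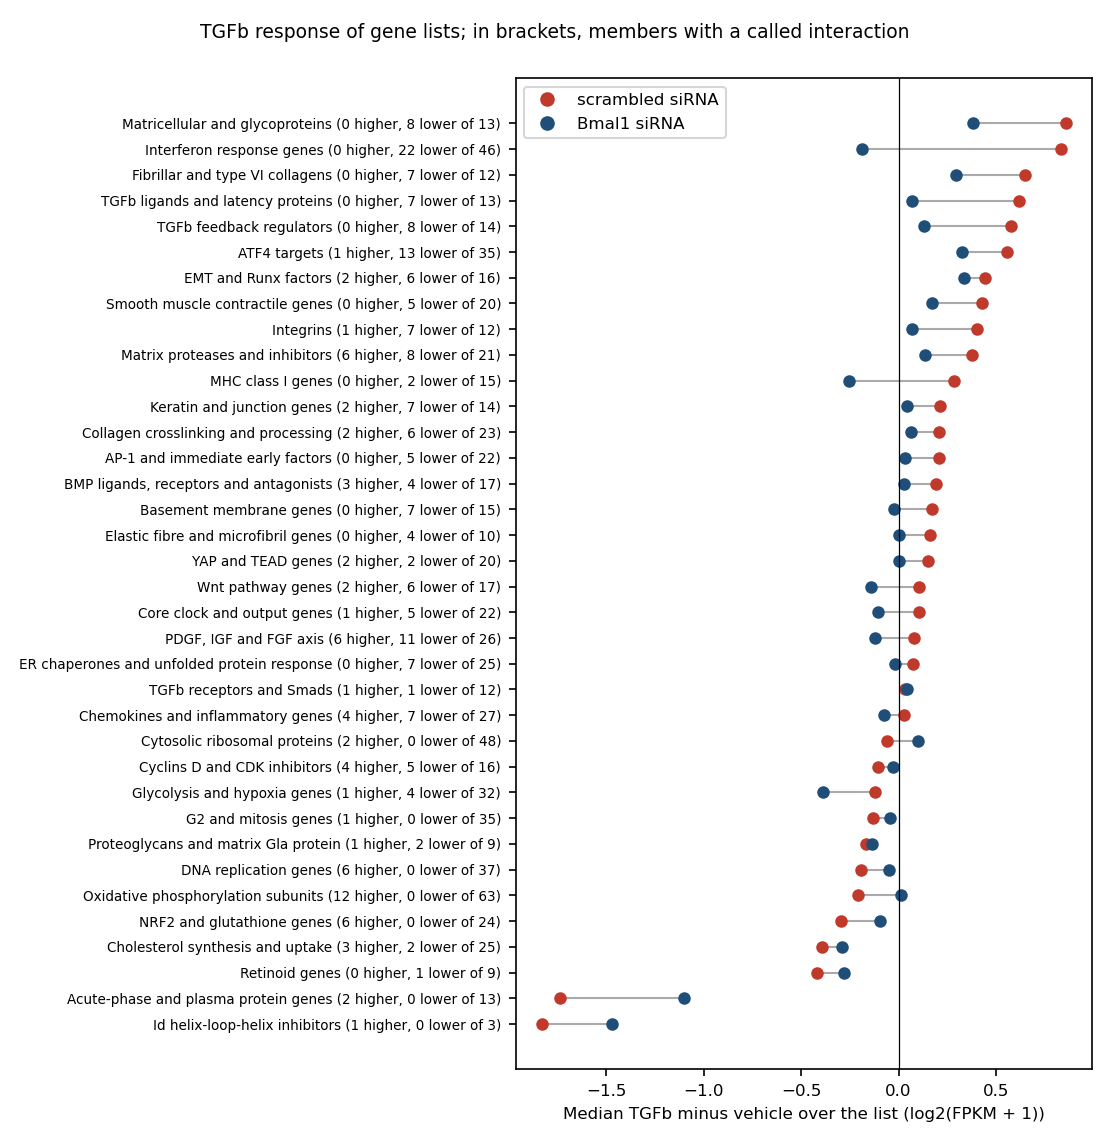
Median TGFb minus vehicle difference (log2(FPKM + 1)) over the tested members of each gene list with scrambled siRNA (red) and Bmal1 siRNA (blue), with the number of members whose interaction was called higher or lower in brackets. The blue points of the lists at the top lie closer to 0 than the red ones, the interferon and MHC lists cross 0, and the cholesterol list changes little, from -0.39 to -0.29.

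Some responses met the rule for a kept response, and cholesterol synthesis and uptake was the list in which these were most common. Of its 25 tested genes 23 were called on the average effect and 17 were kept. Over all genes 8.49% were kept, or 18.2% of those called on the average. The median response was -0.39 with scrambled siRNA and -0.29 with Bmal1 siRNA, smaller than the 1.5-fold limit of the kept rule. By library it was -0.445, -0.371 and -0.403 with scrambled siRNA and -0.339, -0.258 and -0.317 with Bmal1 siRNA. Among the kept members were the synthesis enzymes Sqle, Lss, Idi1 and Fdps and the regulators Srebf2 and Insig1. Of the 25 genes 3 had a called higher interaction and 2 a lower one, with Dhcr7 at 0.50. Over all genes 8.86% were higher and 5.52% lower, so the list was not short of calls. ATF4 targets, the amino acid synthesis and transport genes of the integrated stress response, were divided. Of 35 tested, 17 were kept, 13 were lower on the interaction and 1 was higher, and the median response went from 0.56 to 0.32. Without the second scrambled TGFb library 8 were lower, and without the second Bmal1 siRNA TGFb library 3 were higher. Atf4 itself was kept (means of 319.6 and 448 FPKM with scrambled siRNA, 316 and 408 FPKM with Bmal1 siRNA). Fgf21, a stress hormone of this list, was not, with TGFb levels of 18.2, 25.1 and 24.8 FPKM and 9.07, 8.99 and 9.94 FPKM and an interaction of -1.46 (SE 0.147, adjusted p = 7.52e-05).

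The largest kept responses were not of 1 pathway. Angptl7, a secreted angiopoietin-like protein, fell from 2.63, 2.98 and 4.24 to 0.35, 0.400 and 0.37 FPKM with scrambled siRNA and from 2.46, 3.3 and 2.59 to 0.0700, 0.38 and 0.39 FPKM with Bmal1 siRNA. Podxl, podocalyxin, a surface sialomucin, fell from 24.6, 30.9 and 31.4 to 12.4, 12.4 and 12.6 FPKM and from 35.1, 35.3 and 33.6 to 13.9, 19.8 and 14.8 FPKM. Apoe, the lipid carrier, fell by 1.26 and by 1.06. Lhx6, a LIM-homeobox factor, rose by 0.80 and by 0.81, with an interaction of 0.01 whose interval ran from -0.33 to 0.35. For each of these genes the interval of the interaction lay within 1.5-fold, which bounds a difference and does not show that there was none.

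Enlarged responses were changes seen with Bmal1 siRNA where the control response was near 0. In the 11 enlarged rises the median TGFb effect was 0.00 with scrambled siRNA and 0.47 with Bmal1 siRNA, and in the 7 enlarged falls 0.01 and -0.38. Steap1, a metalloreductase, was at 34.7, 28.5 and 30.3 FPKM and 28.3, 29.9 and 29.8 FPKM without and with TGFb after scrambled siRNA and at 26, 23.9 and 24.7 FPKM and 40.1, 35.3 and 37.9 FPKM after Bmal1 siRNA. Each Bmal1 siRNA vehicle library was below, and each Bmal1 siRNA TGFb library above, all scrambled libraries. Its interaction was 0.67 (SE 0.097, adjusted p = 0.000798). The Wnt receptor Fzd1 differed only under TGFb, at 10.4, 10.6 and 11.6 FPKM with scrambled siRNA and 14.7, 16.7 and 14.6 FPKM with Bmal1 siRNA (interaction 0.47, adjusted p = 0.00588). Tenascin C (Tnc), a matricellular protein, was at 28, 31.2 and 31.5 FPKM and 31.9, 25.6 and 27.7 FPKM in the scrambled groups, and fell from 27.9, 27.2 and 26.5 to 18.4, 16.2 and 17 FPKM after Bmal1 siRNA. The interaction was -0.54 (SE 0.105, adjusted p = 0.00554), and 176 exon bases of Tnc are shared with the gene model 8030451A03Rik. Among genes with a called average effect, Vdr, Plekhg3 and Zfp503 were, besides Spsb1, called in opposite directions. Vdr, the vitamin D receptor, rose from 6.2, 6.3 and 6.35 to 10.5, 9.88 and 10.3 FPKM with scrambled siRNA and fell from 6.63, 5.9 and 6.32 to 5.28, 5.29 and 5.11 FPKM with Bmal1 siRNA, an interaction of -0.85 (SE 0.0771, adjusted p = 4.17e-05). P3h2, a collagen prolyl hydroxylase, had the largest interaction above 0 among the genes with a called interaction and no average response; below 0, that of Oas1a, an interferon gene, was -2.28. It was at 2.56, 1.67 and 1.54 FPKM under TGFb with scrambled siRNA and 4.65, 4.47 and 3.66 FPKM with Bmal1 siRNA (1.0, adjusted p = 0.00214), with 1055 exon bases shared with the antisense gene Gm4524.

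Finally, each of the 880 responses was set against the median share of 52.7%, a contrast chosen after the data were seen. Its p-values were adjusted over all 11208 genes tested. For most no departure from this share was called, which does not show a common reduction. The share is the median of these same genes and was entered without its own error. For 36 genes (29 rises, 7 falls) the reduction was called larger than the median one, and for 11 (3 rises, 8 falls) smaller. Junb (-0.83 (SE 0.0648, adjusted p = 8.29e-05)) led the first group, followed by the Notch target Hes1 (-0.86 (SE 0.0895, adjusted p = 0.00107)), the p53 inhibitor Ppp1r13l and the Notch ligand Jag1 (-0.88 (SE 0.104, adjusted p = 0.00155)). Hes1 was at 11, 11.2 and 10.7 FPKM and 31.5, 31.4 and 34.3 FPKM without and with TGFb after scrambled siRNA, and at 11.9, 13.2 and 14.3 FPKM and 13.7, 10.9 and 12.7 FPKM after Bmal1 siRNA. Jag1 levels in the same order were 2.9, 3.84 and 3.64 FPKM, 10.8, 9.6 and 10.5 FPKM, 4.34, 5.26 and 5.1 FPKM and 4.43, 3.83 and 4.42 FPKM. Neither gene exceeded its vehicle range after Bmal1 siRNA in any library. Vegfa, Bmp2, Bhlhe40, Cx3cl1, Lox and Skil were among the others.

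In the group reduced less than the median share, the response after Bmal1 siRNA was 96.6% (Angptl7) to 169% (Gja1) of the control one. Smpd3, a neutral sphingomyelinase, fell from 58.1, 56.3 and 57.8 to 35.5, 37.7 and 34.5 FPKM with scrambled siRNA and from 57.4, 56.4 and 54.3 to 27.8, 34.2 and 30.8 FPKM with Bmal1 siRNA (share 127%, contrast -0.49 (SE 0.0714, adjusted p = 0.00585)), and 247 of its exon bases are shared with Prmt7. Gja1, connexin 43, fell from 36.2, 44 and 43.8 to 28.8, 30 and 28 FPKM and from 45, 51.6 and 50.5 to 24.5, 30.7 and 26.3 FPKM. Its share was 169%. Cdsn, corneodesmosin, was the clearest rise, to 3.86, 5.92 and 5.19 FPKM and 7.22, 7.65 and 9.44 FPKM from 1.64, 1.8 and 1.54 FPKM and 1.95, 2.65 and 2.21 FPKM. These counts rest on the libraries used. Without the second Bmal1 siRNA TGFb library 125 genes were reduced more and 61 less than the median share, and without the second Bmal1 siRNA vehicle library 12 and 2. Leaving out other single libraries gave 17 to 69 and 3 to 16 genes.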

How the data were processed

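The 12 EMS404 libraries fall into 4 groups of 3, by the sample titles. Per the file headers, expression was deposited by the authors as FPKM, 1 column per library. Tools in the submitters' processing notes are Bowtie2 2.2.5, DESeq2, HISAT2 2.0.4 and RSEM, roles unstated, on mm10. The number of reads, the strand setting and the siRNA sequence are not given in the sources, so the depth and counting error behind a value are unknown, and genes that overlap on the genome may share reads. FPKM is relative within a library, so a change in abundant genes shifts the rest. Library totals ran from 445472 to 483957 FPKM. Per the labels' protocols, RNA came from either of 2 kits, chosen by sample abundance, and which library used which is not given.

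Lines without a gene identifier (555 of 16290, 1.30% to 1.46% of a library's FPKM) and the lower of 15 repeated identifiers were left out, which left 15720 genes, 15694 with a symbol. Values were analysed as log2(FPKM + 1) with limma 3.58.1 (R 4.3.3): a model of the 4 group means over all 12 libraries with a mean-variance trend (residual df 8, prior df 4.99). Tests were two-sided, for the 11208 genes that averaged 0.5 FPKM or more, with Benjamini-Hochberg adjustment over all of them. Fold changes of low genes are understated on this scale. The fit was tested on simulated data. Without counts no count model was used.

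Gene lists were described by counts and medians only. Genes named were those of the clock list with a call, the 10 largest blunted rises and falls, the 5 largest of each other class and direction (kept genes by their average effect), with at least 1 FPKM in the highest group and no predicted gene models, and up to 4 called members per list. Not all of these are printed, and some items are not reported here. Genes of the contrast with the median share, the other list members and Ctsw were chosen after their values were seen. The part of the response examined, the lists and the rules were chosen with earlier results of these data known, so they are not independent of them. Of 202 genes checked in the mm10 annotation, 62 share exon bases with another gene, of which 25 overlap a protein-coding gene. Not every such overlap is printed. Alternatives were pseudocounts of 0.1 and 5, no filter or a higher one (2 FPKM), scaling by median of ratios or by quantiles, a replicate block, no trend, array weights, each library left out in turn and both second TGFb libraries left out.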

Additional observations from a re-analysis of the deposited data

How the results depend on the processing

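None of the 1612 called interactions changed sign under any of the 22 alternatives in which its gene was tested. Between 986 and 1599 of them remained called in the same direction. Of 174 named genes, 164 of them called, 127 had the same call in every alternative in which they were tested. Some of these were tested in fewer than 22, Wnt11 in 17. Counts moved more. With array weights, a fit whose weights gave a convergence warning, 3723 interactions were called (2429 higher, 1294 lower), 2223 responses were blunted (799 rises), 2261 kept and 437 enlarged, and 232 and 178 were reduced by more and by less than the median share. Median-of-ratios scaling gave 575 higher calls. Without both second TGFb libraries 1602 responses were kept and 57 enlarged, and 115 and 48 departed from the median share. Without a filter 22 were reduced more, and with a pseudocount of 0.1 there were 7 reduced less; the contrast with the median share and its alternatives were added after the data were seen, as were the list counts under other settings.

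Without 1 library at a time, calls ran from 991 to 1872, higher calls from 565 to 1194, lower calls from 426 to 678, blunted responses from 826 to 1450, kept from 538 to 1686, enlarged from 7 to 92, responses reduced more from 12 to 125 and reduced less from 2 to 61, and the median share from 45.9% to 67.6%. With the replicate number as a block (replicate block) 1893 interactions were called, of which 1579 were among the 1612. Enlarged responses then numbered 47, and 57 and 41 responses were reduced more and less than the median share. In the MHC class I list 6 calls were then lower, and in the interferon list 32. Same-numbered libraries of different groups correlated at -0.161 to 0.475 in their deviations from group means. For scrambled TGFb with Bmal1 siRNA vehicle all 3 such correlations exceeded 0.1 (0.203 to 0.419), for other groups not all did, and not every library correlated best with its own number. No label says that a number marks a shared culture or day, so the numbers were not taken as pairing.

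The interactions of 5 kept genes, none of them called, changed sign. Lhx6 was at -0.0094 with a pseudocount of 5, -0.044 with median-of-ratios scaling and -0.13 to 0.13 without 1 library. Angptl7 was at -0.25 with a pseudocount of 0.1, -0.0033 with quantile normalization and -0.10 to 0.18 without 1 library. Atp6v0a4 was at -0.052, -0.0034, -0.044, -0.062 and -0.17 with a pseudocount of 5, median-of-ratios scaling, quantile normalization, array weights and without both second TGFb libraries, and at -0.14 to 0.11 without 1 library. Podxl was at -0.075 without both second TGFb libraries. Without 1 library the interaction of Grem1 ran from -0.092 to 0.29, and that of Podxl had its lowest value, -0.072, without the second Bmal1 siRNA TGFb library. The causes were not tested. With 3 libraries a group and no read numbers, small interactions and genes of low FPKM are imprecise.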
